A study of Rattus norvegicus with 4 samples.

Results

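Star miRNAs are the strands that were named with an asterisk because, when the name was given, they were the less abundant arm of their hairpin. The 237 star strands described here are all experimental probes of a rat miRNA array whose names end in an asterisk, less 4 left out of the set (miR-140*, miR-455*, miR-365* and miR-328a*), among 679 miRNA probes in all. A guide with the same name minus the asterisk was on the array for 201 of them, and 36 had no such guide. The cells were rat primary chondrocytes grown at 200000 cells per ml. Total RNA came from 1 untreated culture at 0 h and from cultures given 10 ng/ml interleukin-1β (IL-1β) for 6, 12 or 24 h, with 1 array for each of these 4 conditions. Every probe was printed as 5 spots, so each error below is a spot standard error (SE) within 1 array, and no spread between cultures and no p-value can be given. The 3 treated cultures differ from the control in both cytokine and hours in culture, and these cannot be told apart. No strain, age or passage was given in the sources used here.

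A miRNA hairpin is cut by Drosha and then by Dicer into a duplex of a 5p and a 3p strand. One strand, the guide, is usually kept by an Argonaute protein and the other, the passenger or star, is usually released and degraded. The choice depends on the 5′ base and on the pairing at the duplex ends, and some hairpins deliver both arms. Bases 2 to 8 of a loaded strand form the seed that pairs with target mRNAs, so the arms of a hairpin address different targets. In cartilage, IL-1β is known to switch chondrocytes from matrix synthesis to matrix breakdown.

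Sequences of the strands on which the results turn are given 5′ to 3′ as listed for the probes on the array, with the seed in capitals and the guide beside its star where both are discussed. The first set are star strands with strong signal.
miR-466b-1*: aUACAUACacacacacauacac
miR-466b-2*: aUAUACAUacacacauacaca
miR-466c*: uAUACAUGcacacauacacac
miR-483*: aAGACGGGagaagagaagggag
miR-32*: gCAAUUUAgugugugugauauu
miR-423*: uGAGGGGCagagagcgagacuuuu
miR-210*: aGCCACUGcccacagcacacug
miR-210: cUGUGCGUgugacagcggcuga
The second set are the miR-34 hairpins, whose stars share the seed AUCACUA, and miR-322.
miR-34b*: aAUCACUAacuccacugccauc
miR-34b: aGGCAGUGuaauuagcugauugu
miR-34c*: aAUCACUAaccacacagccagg
miR-34c: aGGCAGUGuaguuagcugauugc
miR-322*: aAACAUGAagcgcugcaaca
miR-322: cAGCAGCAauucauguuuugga
The third set are star strands whose level passed the rule for a change, and the stars of miR-22 and of both miR-24 hairpins.
miR-31*: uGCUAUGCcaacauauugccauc
miR-31: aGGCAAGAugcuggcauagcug
miR-221*: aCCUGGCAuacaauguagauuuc
miR-221: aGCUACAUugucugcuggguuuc
miR-296*: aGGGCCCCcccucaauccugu
miR-22*: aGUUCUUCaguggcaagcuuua
miR-24-1*: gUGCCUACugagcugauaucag
miR-24-2*: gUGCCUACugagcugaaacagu
miR-24: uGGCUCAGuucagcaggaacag

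Of the 237 star sequences, 218 matched a RefSeq mature miRNA of the GRCr8 assembly exactly and 19 did not. The assembly's gene table gives gene spans only, so positions below are placed within a span without a statement on exons, introns or strand of the host. The 3 miR-466 stars lay on the minus strand within the span of Sfmbt2, at chr17:72945512-72945533 for miR-466b-1*, chr17:72942475-72942495 for miR-466b-2* and chr17:72927610-72927630 for miR-466c*. miR-483* lay at chr1:207247903-207247924, minus strand, within the span of Igf2, the insulin-like growth factor 2 gene. miR-423* lay within Nsrp1 at chr10:62412317-62412340, minus strand. miR-32* lay within Tmem245 at chr5:76391288-76391309, minus strand. The miR-34b and miR-34c hairpins, known targets of p53, lay within the span of Hoatz, with miR-34c* at chr8:60306101-60306122, minus strand, and miR-34b* 520 bases away. The remaining stars shown lay within annotated lncRNA spans or outside any annotated span. These were miR-210* at chr1:205755984-205756005 (minus), miR-322* at chrX:137726162-137726181 (minus), miR-31* at chr5:108714869-108714891 (minus), miR-221* at chrX:6023206-6023228 (plus), miR-296* at chr3:183470114-183470134 (minus) and miR-22* at chr10:60805349-60805370 (plus). miR-24-1* lay within the span of Aopep on chromosome 17, and miR-24-2* on chromosome 19 outside any.

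The arrays carried small RNA labelled with the dye Cy5, and the summed miRNA probe intensity ran from 2945515 units at 0 h to 4713074 units at 12 h. The background differed more than that: the median empty spot read 122.6 units at 0 h, 46.2 units at 6 h, 75.3 units at 12 h and 65.0 units at 24 h. A probe was called detected where at least 3 of its 5 spots exceeded the 95th percentile of the empty spots of its array, and net signal below means intensity less the median empty spot. As a check of the cell type, 4 of 5 chondrocyte markers were detected at 0 h and 5 of 5 at the later times, with miR-140, miR-199a-3p and miR-214 among them. The marker undetected at 0 h was miR-455. Blood and epithelial markers were at most 1 detected of 6 and 1 of 7 on any array. Of 2 endothelial markers, miR-126 was detected at 6, 12 and 24 h and miR-126* on no array. Of 4 muscle markers, miR-206 was detected on all 4 arrays, miR-1 and miR-133a at 6 h only and miR-133b on none. Of 4 neural markers, miR-128 was detected on all 4 arrays, miR-124 at 6 h only, and miR-9 and miR-219-5p on none. By net signal, miR-206 (621, 891, 661 and 977 units) was brighter than miR-140 (70.6, 103, 288 and 450) on all 4 arrays. miR-128 (183, 328, 461 and 322) was brighter than miR-140 at 0, 6 and 12 h. Both were dimmer than miR-140*, miR-199a-3p and miR-214 on all 4 arrays. In a culture, fewer cells that make a strand and less of it per cell cannot be told apart.

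Star strands were seen less often than their guides on every array. At 0 h, 40 of 237 stars (16.9%) and 82 of 201 guides (40.8%) were detected. At 6 h the numbers were 98 stars (41.4%) and 123 guides (61.2%), at 12 h 59 stars (24.9%) and 107 guides (53.2%), and at 24 h 47 stars (19.8%) and 97 guides (48.3%). The 6 h array, with the lowest background, stood apart with the most stars. When 1 net limit, that of the 0 h array (28.8 units), was set on all 4 arrays, the counts were 40, 48, 52 and 43 stars in order of time, and 82, 96, 103 and 95 guides.

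Over the 4 arrays, 138 stars were detected on none, 36 on 1, 12 on 2, 20 on 3 and 31 on all 4. Of the 36 seen once, 35 were seen at 6 h and 1 at 24 h. None of those 35 reached the limit of the 0 h array, and the part of the low 6 h background in their detection was not tested. By contrast 80 of the 201 guides were detected on all 4 arrays. For 35 of these 80 the star was detected on none, among them the stars of miR-16, miR-29a, miR-100, miR-127, miR-191 and miR-214, which lie outside the rule for named strands and stand as examples of that count. Neither arm was detected on any array for 58 pairs.

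**Figure D1:**
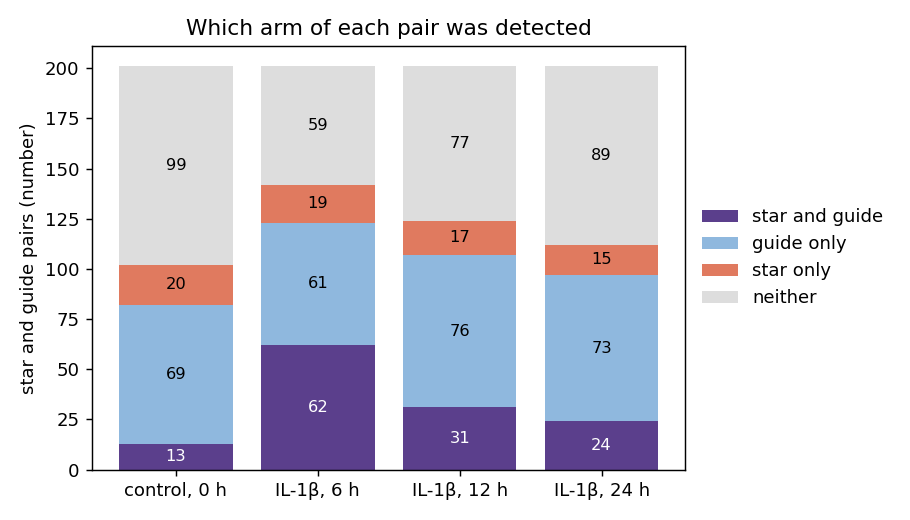
Number of the 201 star and guide pairs (vertical axis) in each of the 4 arrays (horizontal axis), split by which arm was detected. Both arms were detected for 13, 62, 31 and 24 pairs at 0, 6, 12 and 24 h, and the star alone for 20, 19, 17 and 15.

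On the treated arrays a star was detected more often where its guide was. Among pairs with a detected guide, the star was also detected for 15.9% at 0 h, 50.4% at 6 h, 29.0% at 12 h and 24.7% at 24 h. Among pairs without a detected guide the shares were 16.8%, 24.4%, 18.1% and 14.4%. At 0 h the shares lie close together. None of these differences was tested, since all pairs of an array share 1 library. The star was the only arm detected for 20 pairs at 0 h, 19 at 6 h, 17 at 12 h and 15 at 24 h.

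Detected stars were dim. Their median net signal was 119 units at 0 h, 26.5 at 6 h, 99.8 at 12 h and 98.4 at 24 h, against 574, 277, 661 and 778 units for the detected guides. The 5 spots of a detected star varied by a median of 11.5%, 12.2%, 10.7% and 11.5% of their mean on the 4 arrays in order of time. Where both arms were detected, the median star signal was 3.92% of the guide signal at 0 h over 13 pairs and 5.13% at 6 h over 62 pairs. It was 4.75% at 12 h over 31 pairs and 3.51% at 24 h over 24 pairs. Probes bind with different strength, so a signal ratio between arms is no ratio of molecules, and the change of a ratio over time is the firmer quantity. On the normalised log2 scale the median star minus guide difference was -3.87, -2.48, -2.72 and -3.18, and the pairs behind each median differ from array to array. Over the 11 pairs with both arms on all 4 arrays it was -2.16, -1.98, -2.06 and -3.01. Across pairs the star's level did not follow the guide's: Pearson's r was -0.03 at 0 h (n = 13 pairs), -0.19 at 6 h (62), -0.17 at 12 h (31) and -0.03 at 24 h (24), as a description of pairs on shared arrays.

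Other arm pairs of the array are named 5p and 3p, with no arm called minor. In those the 3p minus 5p difference had a median of -0.61 at 0 h over 4 pairs, -0.30 at 6 h over 17, -0.39 at 12 h over 6 and -0.45 at 24 h over 6. These are descriptions of few pairs, and the difference from the star pairs was not tested.

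**Figure D2:**
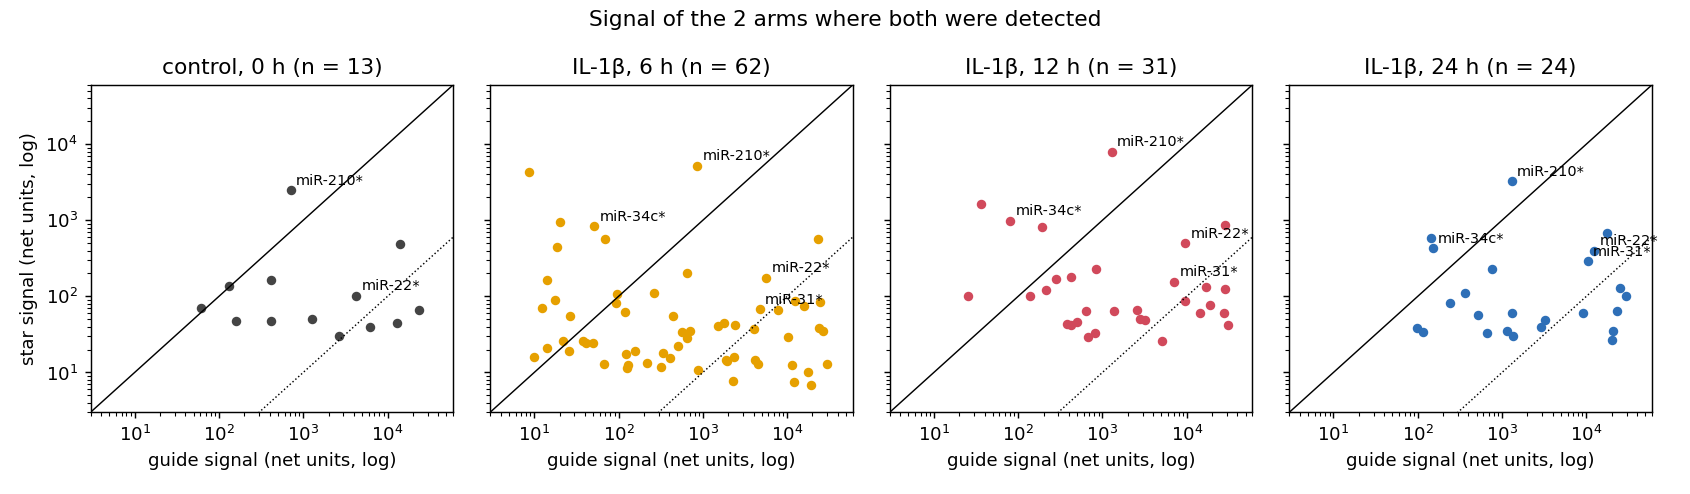
Net star signal (vertical, log axis) against net guide signal (horizontal, log axis) for pairs with both arms detected, 1 panel for each array. Each point is 1 pair, the solid line marks equal signal and the dotted line a star at a hundredth of its guide; most points lie below the solid line and miR-210* lies above it on all 4 arrays.

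The largest star signals came from the miR-466 hairpins. miR-466b-1* read 17345 net units at 0 h, 21482 at 6 h, 24392 at 12 h and 25491 at 24 h. miR-466c* read 16763, 21673, 23576 and 24800 units, and miR-466b-2* read 8952, 14033, 17055 and 14126. All 3 were among the bright probes of every array, while the guide miR-466c was detected on none and the array's miR-466b probe read 607, 851, 2534 and 523 units. The stars differ from each other by few edits (4 between miR-466b-1* and miR-466b-2*, and 3 between miR-466b-2* and miR-466c*). They are built of repeats of C, A and U, so a probe for 1 of them may also take up the others or unrelated RNA with the repeat, which was not tested. After normalisation none of the 3 moved by more than 0.18 on the log2 scale at any time.

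miR-483*, from a hairpin within the span of Igf2, read 3070 net units at 0 h, 4244 at 6 h, 5561 at 12 h and 4655 at 24 h. Its guide miR-483 was detected only at 6 h, at 8.62 units, close to that array's limit of 7.92 and below the limit of the 0 h array, so no ratio is given. The normalised level of the star differed from 0 h by -0.12 ± 0.08 at 6 h, -0.50 ± 0.10 at 12 h and 0.00 ± 0.07 at 24 h.

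miR-210* was the only star brighter than a detected guide on all 4 arrays. miR-210 is known as the miRNA of the hypoxia response. Net signal of the star was 2475, 5209, 8003 and 3265 units at 0, 6, 12 and 24 h, against 708, 849, 1288 and 1296 units for the guide. The star was 3.49, 6.13, 6.21 and 2.52 times the guide, highest at the middle times. The arm ratio differed from 0 h by 0.67 ± 0.14 at 6 h, 0.65 ± 0.13 at 12 h and -0.27 ± 0.15 at 24 h on the log2 scale, and none of these reached the 2-fold rule. miR-196b* and miR-652*, whose guides were also on all 4 arrays, were close to their guides at 0 h (1.15 and 1.05 times) and lower at 24 h (29.6% and 33.8% of the guide signal).

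Other stars were detected on all 4 arrays while the guide was detected on none or on few. The guide was on none for 6 of them: miR-32*, miR-34b*, miR-466c*, miR-485*, miR-496* and miR-758*. The guide was on 1 to 3 arrays for 8: miR-187*, miR-196c*, miR-298*, miR-322*, miR-34c*, miR-423*, miR-483* and miR-503*. Both arms were on all 4 for 11: let-7d*, miR-106b*, miR-145*, miR-151*, miR-196b*, miR-210*, miR-22*, miR-23a*, miR-27b*, miR-28* and miR-652*. The last 6, miR-125b*, miR-129-2*, miR-138-1*, miR-24-2*, miR-466b-1* and miR-466b-2*, had no guide of exactly that name.

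miR-32* read 806 net units at 0 h, 1368 at 6 h, 2884 at 12 h and 908 at 24 h, with miR-32 undetected throughout. miR-423* read 390, 445, 563 and 464 units, with miR-423 detected only at 6 h. miR-196c*, from a family encoded in the Hox clusters, read 468, 947, 1636 and 605 units, against at most 36.8 units for miR-196c. In each of these the net signal, which is not normalised, was highest on the 12 h array. That array also had the largest summed miRNA probe intensity. miR-32* had the largest range of normalised level among the stars on all 4 arrays, 1.35 on the log2 scale, and miR-23a* the smallest, 0.08.

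miR-758* read 421, 486, 610 and 576 units and miR-485* read 198, 312, 333 and 333 units, both with guides undetected. Both belong, with miR-496* nearby, to the imprinted Dlk1-Dio3 region. miR-187* read 137, 165, 208 and 98.3 units and its guide was detected only at 6 h, at 14.3 units. miR-503* read 65.5, 69.4, 88.0 and 94.7 units and its guide 12.4 units at 6 h, the only time it was detected. miR-298* read 101, 89.4, 99.8 and 63.8 units and its guide 17.4 and 25.6 units at 6 and 12 h, the times it was detected. These guide signals all lie below the limit of the 0 h array, so no ratio is given. The fainter stars miR-330*, miR-667* and miR-770*, exceeded a detected guide only at 6 h, by 1.47, 1.17 and 1.60 times, on net signals of 20.7, 25.7 and 15.8 units that lie below the limit of the 0 h array.

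At the other end, the stars of several strongly expressed guides gave under 1% of the guide signal. miR-23a* read 66.0, 84.4, 124 and 102 net units, which was 0.282% to 0.434% of miR-23a. miR-27b* gave 0.276% to 0.470% of miR-27b, and miR-145*, from a smooth muscle and mesenchymal hairpin, 0.641% to 0.896% of miR-145. All 3 of these ratios varied less over the 4 arrays than the ratio of miR-210*. None of the pairs compared for arm ratio calls had a guide above 30000 units, so leaving out such pairs removed none and tested nothing. let-7d* was brighter, with 483, 569, 879 and 673 units, or 3.40%, 2.43%, 3.13% and 3.82% of let-7d. miR-151* and miR-28* had the more even pairs, at up to 40.2% and 42.4% of their guides.

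**Figure D3:**
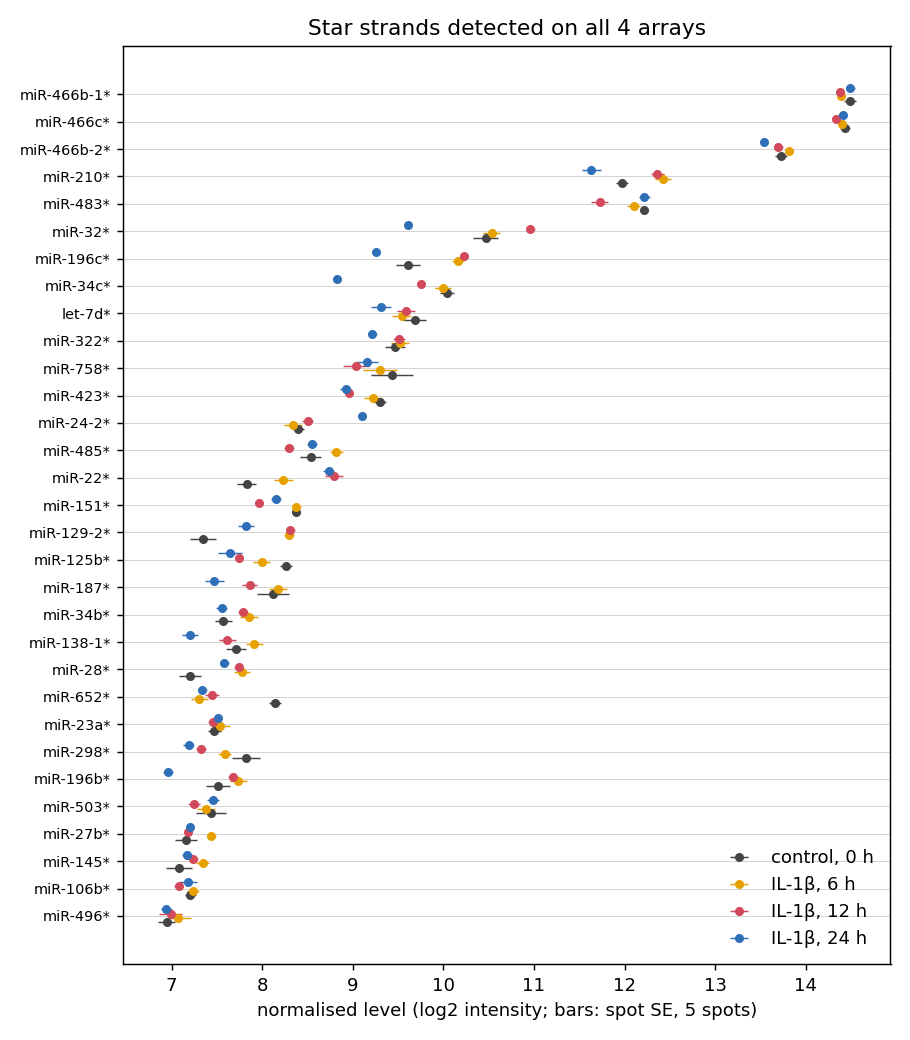
Normalised level (log2 intensity, horizontal axis) of the 31 stars detected on all 4 arrays, ordered by mean level; points are the 4 arrays and bars the spot SE over 5 spots. Points of a star mostly lie close together, with miR-32*, miR-34c* and miR-652* among the wider ones.

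Most stars seen on every array stayed close to their 0 h level. Of the 31, 21 stayed within 1.5-fold of the 0 h level at all 3 later times. Changes had a positive sign at all 3 times for 5 stars, a negative sign for 9 and mixed signs for 17. The median range over the 4 arrays was 0.50 on the log2 scale.

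A level was called changed where it differed from 0 h by at least 2-fold and by more than 2 spot SE, among probes detected on at least 1 of the 2 arrays. At 6 h, 1 of 98 stars was higher and 0 were lower, against 1.41% higher and 2.25% lower of the 355 miRNA probes compared. At 12 h, 0 of 62 stars were higher and 1 was lower, against 5.62% higher and 4.02% lower of 249 probes. At 24 h, 2 of 55 stars were higher and 2 lower, against 8.15% higher and 5.58% lower of 233 probes. The median change of the stars was 0.06, 0.05 and -0.02 on the log2 scale, and that of all probes 0.03, 0.09 and 0.02. Shares of stars called are thus not above those of all probes at any of the 3 times, and with so few calls no more can be read from them.

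miR-31* is the star of a hairpin known to respond to inflammatory cytokines in other cells. It read 25.9 net units at 0 h, where it was not detected, 67.9 at 6 h, 156 at 12 h and 287 at 24 h. The signal was higher on each later array. The normalised level differed from 0 h by 0.49 ± 0.12, 0.73 ± 0.10 and 1.51 ± 0.10 on the log2 scale, or 1.40-fold, 1.66-fold and 2.84-fold. Its undetected 0 h level (6.889) stood above the lowest detected level of that array (6.886). These folds are thus the measured values, with no separate lower bound beside them. The guide miR-31 read 3655, 4737, 7076 and 10365 units and its normalised level was -0.18 ± 0.07, -0.35 ± 0.05 and 0.67 ± 0.06 from 0 h. With arrays scaled to a common median, miR-31* at 24 h changed by 0.69 and was no longer called. Where detection on both arrays was required it was left out, being undetected at 0 h.

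miR-221* and miR-222* come from neighbouring hairpins whose guides are known to target the cell cycle inhibitor Cdkn1b. miR-221* read 2.15 net units at 0 h, 87.6 at 6 h, 133 at 12 h and 131 at 24 h. It was undetected in the control, with none of 5 spots above the limit, and detected on all 5 spots of each treated array. Its normalised level changed by 1.01 ± 0.05, 0.94 ± 0.03 and 1.14 ± 0.06, and was at least 1.61-fold higher at 6 h, 1.53-fold at 12 h and 1.76-fold at 24 h. The 6 h call stood at the edge of the 2-fold rule and was lost under 8 of 15 other settings, and the 24 h call under 5. Some of these settings only loosen the rule or reuse the same value and could not end a call. Detection on both arrays is not among them, and it left miR-221* out because the strand was undetected at 0 h. The guide miR-221 read 7839, 12324, 17106 and 24806 units, so the star was 0.711%, 0.775% and 0.526% of it on the treated arrays. miR-222* read -17.8, 29.1, 60.7 and 26.5 units, undetected at 0 h. Against the limit there it was at least 1.12-fold higher at 12 h and 1.01-fold at 24 h, with no bound at 6 h, and it was not called.

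miR-296* was the only star called lower at more than 1 time. It read 143 net units at 0 h, 54.5 at 6 h, 28.3 at 12 h and 27.9 at 24 h, highest in the control. Its level differed from 0 h by -0.97 ± 0.23 at 6 h, -1.45 ± 0.22 at 12 h and -1.27 ± 0.21 at 24 h. As measured it was 2.73-fold lower at 12 h, where only 2 of 5 spots passed the limit, and 2.41-fold lower at 24 h. Its neighbour miR-298*, 417 bases away, differed by -0.23 ± 0.17, -0.50 ± 0.16 and -0.63 ± 0.17. miR-296* has a GC content of 66.7%. After correction for GC content both of its calls were lost.

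miR-34c* and miR-34b* share a seed and lie 520 bases apart, with different signal strength. miR-34c* read 604 net units at 0 h, 832 at 6 h, 982 at 12 h and 429 at 24 h. Its normalised level was close to 0 h at 6 h (-0.04 ± 0.12) and 12 h (-0.28 ± 0.08) and 2.32-fold lower at 24 h (-1.21 ± 0.08). miR-34b* read 75.6, 120, 192 and 107 units and differed from 0 h by 0.29 ± 0.14, 0.22 ± 0.11 and -0.02 ± 0.11. The 5 edits between these stars, outside the shared seed, leave some room for cross-binding, which was not tested. Without normalisation the 24 h change of miR-34c* was -0.50 and was not called. The star of miR-34a was detected on no array.

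Among stars detected on all 4 arrays and not called, miR-129-2*, miR-22*, miR-32* and miR-652* came nearest to the rule. miR-22* read 102, 176, 497 and 397 net units, and changed by 0.40 ± 0.15, 0.96 ± 0.14 and 0.91 ± 0.12. miR-129-2* read 58.0, 183, 339 and 156 units, and changed by 0.95 ± 0.15, 0.97 ± 0.15 and 0.48 ± 0.17. miR-652* read 137, 62.6, 121 and 80.8 units, and changed by -0.84 ± 0.12, -0.70 ± 0.10 and -0.80 ± 0.08. miR-32*, whose signals are given above, differed from 0 h by 0.07 ± 0.17, 0.49 ± 0.15 and -0.86 ± 0.14. On both scales miR-22* and miR-129-2* were lowest at 0 h, and miR-652* was highest there.

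Among stars seen on 1 to 3 arrays, miR-122* read 224, 84.1, 121 and 14.4 net units. Its change of -1.03 at 24 h had a spot SE of 0.75, so it was not called, and miR-122, the defining miRNA of liver, was undetected on all 4 arrays. miR-323* read 57.0, 26.8, 26.5 and -12.1 units and differed by -0.57 ± 0.22, -0.62 ± 0.18 and -0.99 ± 0.18. miR-382* read 22.3, 81.3, 100 and 38.6 units, and miR-337* 27.7, 74.6, 96.0 and 94.1, both undetected at 0 h. miR-25*, 372 bases from miR-106b*, read 50.3, 44.2, 65.3 and 11.8 units and was undetected at 24 h.

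In all, 13 stars were detected on the 3 treated arrays and not on the control array, and 9 of these also with the limit of the 0 h array set on all arrays. The 9 were let-7b*, miR-10b*, miR-130a*, miR-221*, miR-30a*, miR-31*, miR-337*, miR-361* and miR-382*. The other 4 were let-7a-1*, miR-222*, miR-24-1* and miR-872*. The control array had the highest background, and the part of that in this pattern was not tested. let-7b* is an example at the edge, with 29.7 net units at 0 h and 38.5, 61.1 and 34.6 later. Net signal is not normalised, and the normalised level of let-7b* differed from 0 h by only 0.06, 0.09 and 0.01 on the log2 scale.

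The arm ratio is the star level minus the guide level on the log2 scale, and its change was called by the same 2-fold and 2 SE rule where both arms were detected on both arrays. None of 13 pairs was called at 6 h, none of 12 at 12 h and none of 11 at 24 h. Among all arm pairs of the array, including those named 5p and 3p and the 4 left out, 5.0% of 20 were called at 6 h, 15.8% of 19 at 12 h and 16.7% of 18 at 24 h. Of the 4 compared pairs named 5p and 3p, 0 were called at each time. Every call in these shares thus came from pairs left out of the set, and the shares are no general rate for arm pairs. Changes of the star pairs ran from -0.58 to 0.67 at 6 h, from -0.58 to 0.96 at 12 h and from -0.92 to 0.30 at 24 h, with medians of 0.18, 0.21 and -0.16. The highest was miR-22* at 12 h (0.96 ± 0.16), where the star reached 5.18% of miR-22, against 2.37% at 0 h. The lowest was miR-652* at 24 h (-0.92 ± 0.11). miR-106b* followed at 24 h with -0.85 ± 0.16; its own level stood at -0.03 ± 0.12 and that of its guide miR-106b at 0.82 ± 0.11. Across these pairs the star's change went with the guide's change at r = 0.22 (n = 13), 0.18 (n = 12) and 0.45 (n = 11), a description of pairs measured against 1 shared control array.

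**Figure D4:**
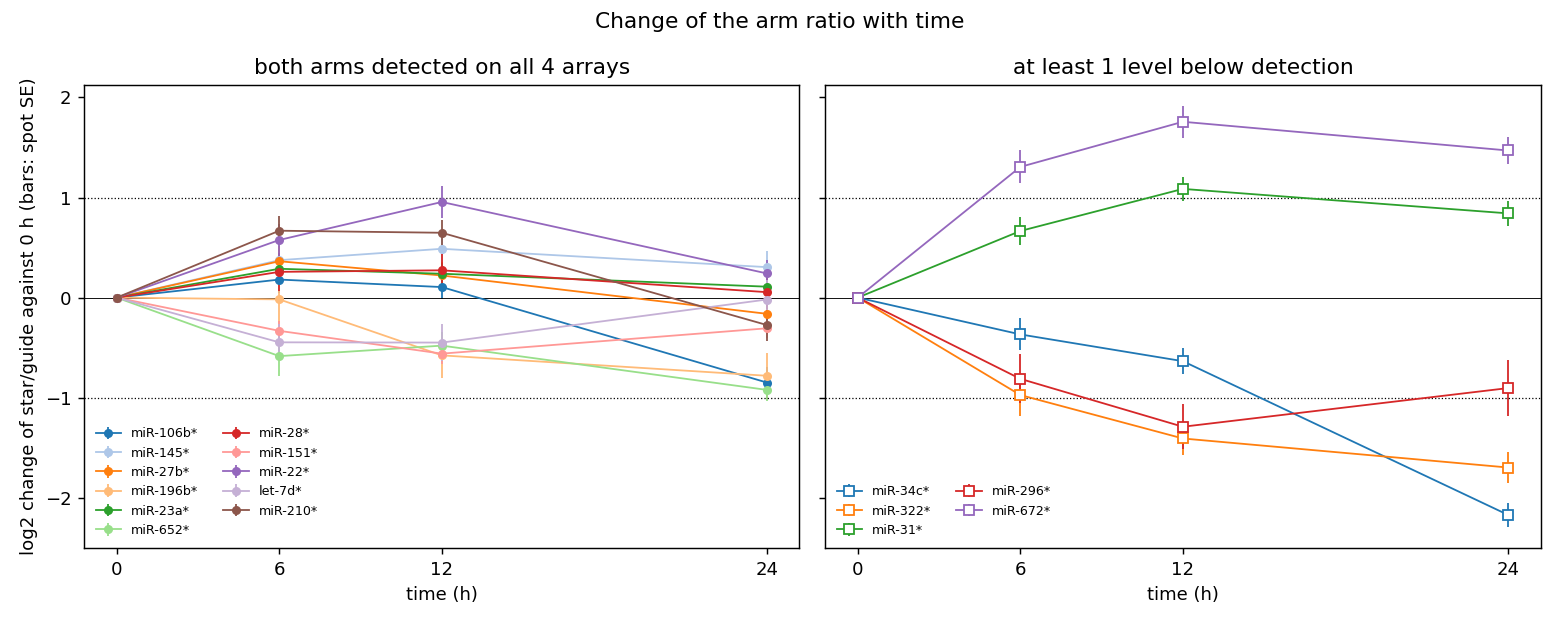
Change of the arm ratio (log2 star over guide, against 0 h, vertical axis) with time in hours (horizontal axis), for the 11 pairs with both arms detected on all 4 arrays (left) and 5 pairs with a level below detection (right, open squares); bars are spot SE and dotted lines mark 2-fold. The left lines stay inside the 2-fold lines, and miR-34c* falls to -2.17 at 24 h on the right.

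Where each arm was detected on only 1 of the 2 arrays or more, more pairs could be read. The rule then called 2 of 62 star pairs at 6 h, 5 of 33 at 12 h and 3 of 26 at 24 h, against 4.82%, 20.9% and 19.4% of all arm pairs. Of the pairs named 5p and 3p, 0 of 17, 0 of 6 and 0 of 6 were called. The calls beyond the star pairs thus all came from pairs left out of the set, and these shares are no general rate either. Such values rest on a level below the limit, so a bound is given beside the measured change where there is one. Such a bound allows for the undetected level only, and not for spot error or other processing settings. miR-34c had the largest: its guide read 24.0 net units at 0 h, undetected, and 51.2, 80.8 and 150 units later, and the level of its star was called lower at 24 h. The star to guide signal went from 16.2 times at 6 h to 12.2 times at 12 h and 2.86 times at 24 h. At 24 h the arm ratio had changed by -2.17 ± 0.12, and was at least 4.41-fold lower than at 0 h. This change kept its sign and its call under all 17 other settings, with values from -3.77 to -1.18. Some of these settings reuse the same value or only loosen the rule, as with 1.5-fold, and could not end the call. The rule with both arms detected on both arrays does not compare this pair, because miR-34c was undetected at 0 h.

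miR-322, whose human counterpart is called miR-424, had a ratio that moved the same way. Its star read 427, 570, 824 and 586 net units and its guide -17.0, 68.7, 195 and 146 units, undetected at 0 h. The star was 8.30, 4.23 and 4.03 times the guide at 6, 12 and 24 h. The ratio changed by -0.97 ± 0.21, -1.41 ± 0.17 and -1.70 ± 0.15, and was at least 1.82-fold lower at 12 h and 2.22-fold lower at 24 h. The star's own level stayed within 0.25 of 0 h at all 3 times on the log2 scale, and the guide passed from undetected to detected. With median scaling or no normalisation the ratio was -0.72 at 12 h and -0.86 at 24 h and was not called.

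miR-31* was higher relative to its guide at 12 h by 1.09 ± 0.12, or 2.12-fold. The call was lost with cyclic loess, the authors' values or GC correction, and the sign turned with median scaling or no normalisation (-0.18). The ratio of miR-296* to miR-296 changed by -1.29 ± 0.23 at 12 h, or 2.44-fold lower. For these ratios of miR-31* and miR-296* the bound equalled the measured change. The following pairs lie outside the rule for named strands and were chosen after their values were seen. miR-672* was at least 2.02-fold higher relative to its guide at 6 h and 2.77-fold at 12 h, where the star read 28.6 and 29.2 net units and the guide 650 and 667 after 1021 units at 0 h; both calls were lost with median scaling or no normalisation. miR-320* at 12 h had a ratio change of 1.09 ± 0.12, at least 1.65-fold. For miR-29c* at 6 h (-1.08 ± 0.24) and miR-146a* at 24 h (-1.53 ± 0.16) no bound could be given, because the undetected level was the star's at 0 h. miR-146a, known as a feedback inhibitor of NF-κB signalling, read 330, 870, 2101 and 3223 units, while its star read -39.2, 10.7, 15.9 and 48.3 units.

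Stars grouped by family gave the following counts. All 6 stars of the miR-23/27/24 clusters were detected at least once and 3 on all 4 arrays, with no level called. miR-24-2* read 169, 194, 398 and 531 net units and miR-24-1* read 4.13, 24.7, 42.4 and 25.3 units, although both hairpins give the same guide, miR-24, which read 15130, 15104, 19060 and 29553 units. These 2 stars share the seed UGCCUAC and differ by 3 edits. Of 8 let-7 and miR-98 stars, 5 were detected at least once and 1, let-7d*, on all 4. Of 11 stars of the miR-17-92 cluster and its paralogs, 3 were detected and 1, miR-106b*, on all 4. None of the let-7 or miR-17-92 stars was called at any time, and with so few compared this cannot be set against the 1.41% to 8.15% of all probes called in 1 direction.

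The stars of miRNAs known to respond to inflammatory cytokines numbered 9 on the array. Of these 6 were detected at least once and 0 on all 4. Their median level change was 0.43 at 6 h over 6 stars, 0.73 at 12 h over 3 and 1.06 at 24 h over 4, against 0.03, 0.09 and 0.02 for all probes. 1 was called at 6 h (miR-221*), 0 at 12 h and 2 at 24 h (miR-31* and miR-221*), all higher, against 1.41%, 5.62% and 8.15% of all probes called higher. None of the 9 was detected at 0 h, so a star entered only through its detection on the later array, and the medians are given as a description and support nothing.

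The other families gave these counts. Of 8 stars of the miR-10, miR-99, miR-100, miR-125b and miR-196b related families 5 were detected, and miR-125b* stayed between 124.6 and 181 net units. Of 5 miR-30 stars 3 were detected, with miR-30a* at 4.93%, 4.75% and 2.26% of miR-30a on the treated arrays. Of 4 miR-29 stars 1 was detected, at 6 h only, and of 4 miR-181 stars 1. Of 6 miR-15/16 family stars 3 were detected, led by miR-322*. Of 7 stars of mesenchymal miRNAs 5 were detected, led by miR-22* and miR-145*. Of 24 Dlk1-Dio3 stars 7 were detected and only miR-485* of that list on all 4 arrays. No star of these lists was called at any time, against 1.41%, 5.62% and 8.15% of all probes called higher and 2.25%, 4.02% and 5.58% called lower at 6, 12 and 24 h, and the miR-34 stars gave the 1 call of miR-34c* among 3 probes.

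Star sequences differed from guides in their first base. U stood first in 40 of 237 stars (16.9%) and in 106 of 201 guides (52.7%). Among the 31 stars on all 4 arrays U stood first in 4. Detected stars were richer in G and C: the median GC content was 50% for stars on all 4 arrays, 52.4% for those on 1 to 3 and 45.5% for those on none, with 45.5% for guides. By position in the hairpin, 34 of 97 stars on the 5p arm and 58 of 121 on the 3p arm were detected at least once, and 10 and 19 on all 4 arrays. Probes with more G and C bind more strongly, and the part of that in detection was not tested.

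GC content also moved with the measured changes. Over the stars compared, Pearson's r between GC content and level change was -0.44 at 6 h (n = 98), -0.51 at 12 h (n = 62) and -0.41 at 24 h (n = 55). Over all probes it was -0.43, -0.47 and -0.44, so the relation was of like size over the whole array. All of these comparisons share the 0 h array. Of the called stars, miR-31* and miR-221* had 43.5% and 39.1% GC and were higher, miR-296* had 66.7% and was lower, and miR-34c* had 50% and was lower at 24 h. After a correction for GC content no star was called at 6 or 12 h. At 24 h the calls of miR-31* (1.29) and miR-34c* (-1.20) remained, those of miR-221* (0.76) and miR-296* (-0.67) were lost, and miR-32* was newly called (-1.49).

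**Figure D5:**
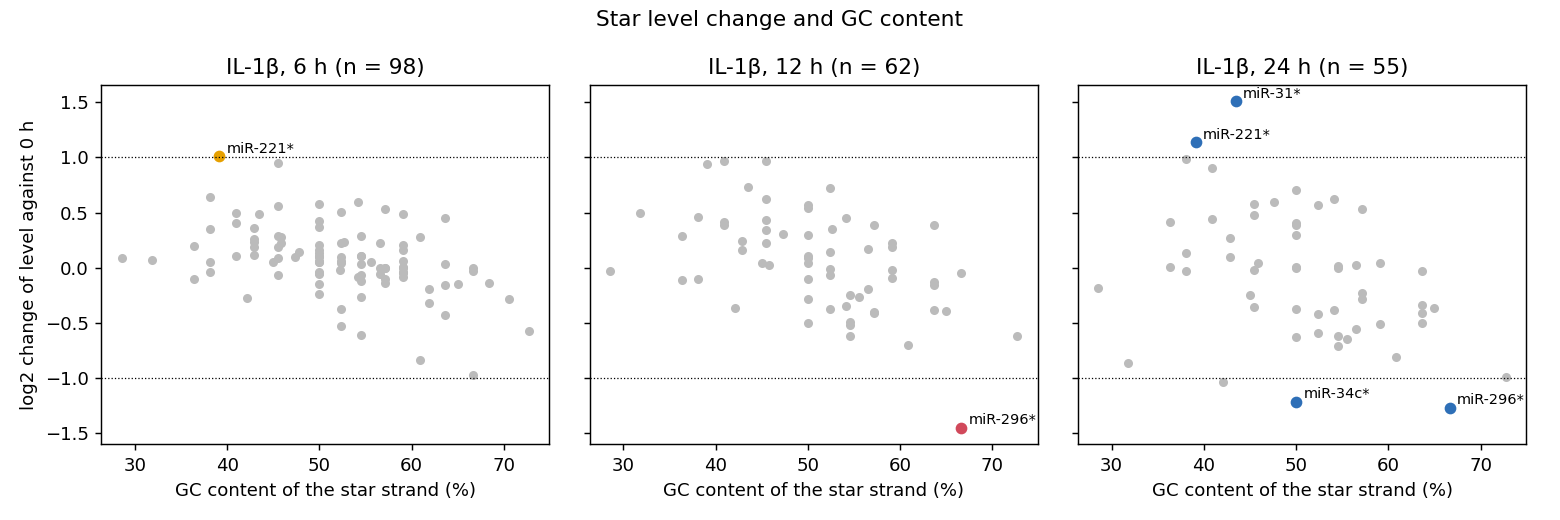
Change of level against 0 h (log2, vertical axis) by GC content of the star (percent, horizontal axis) for stars detected on at least 1 of the 2 arrays, 1 panel for each time; coloured points passed the 2-fold and 2 SE rule and dotted lines mark 2-fold. Changes tend to be lower at higher GC content at all 3 times.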

How the data were processed

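Small RNA from 4 cultures was hybridised to 1-colour arrays, 1 array per condition. The authors' deposited spot files give the mean pixel density of every spot on a linear intensity scale, before background correction (a unit recorded as other because the numbers carry digit separators), and list the target sequence of every probe. The deposited value table gives the authors' processed intensity for each probe; how it was normalised is not given in the sources used here, and it served as an alternative. Its log2 values correlated with those used here at r = 0.996 to 0.999 over the 237 stars. The image software's settings and the scan dates were not used here.

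In R 4.3.3 with limma 3.58.1, intensities were background corrected with normexp (offset 50, fitted on all spots), put on the log2 scale and quantile normalised over the miRNA spots of the 4 arrays, and the 5 spots of a probe were averaged. The SE of a level is the spot SD over the root of 5, and errors of differences add in squares. Undetected levels enter bounds at the lowest detected level of that array, or at their own if higher. Bounds written as at least a given fold do not allow for spot error or other processing settings. Edits are substitutions, insertions and deletions between 2 sequences. Sequences are those deposited with the probes; positions and names are from RefSeq GRCr8. The calling code was tested on simulated data. There is no replicate culture, so spot errors and the number of arrays limit the precision and calls are rules of size, not tests.

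Strands named were those on all 4 arrays, those called, those brighter than a detected guide, the 8 with the highest maximum level among those on 1 to 3 arrays, and up to 2 of each list. The members, lists and rules were chosen with earlier results of these data known. Alternatives covered detection limits, background correction, normalisation, spot summary, thresholds, GC content, related probes and bright guides. Of these, the limit shared by all arrays, the lowest detected level in place of undetected ones and normalisation without the 12 h array were added after seeing the data.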

Additional observations from a re-analysis of the deposited data

How the results depend on the processing

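With 1 array per condition no array could be left out of a group. No paired analysis was possible because each group holds 1 array and pairs need at least 2 shared replicate numbers. Depth is limited by background: at 0 h a spot had to read more than 28.8 units above the median empty spot to count towards detection. Detected stars at 6 h numbered 98, against 65 when all 5 spots had to pass and 48 with 1 net limit; counts at the other times stayed within 1.5 times. The median log2 star minus guide difference at 0, 6, 12 and 24 h was -4.69, -5.21, -4.36 and -4.66 with plain background subtraction and -4.23, -3.02, -3.20 and -3.57 with offset 16. It was -4.04, -2.59, -2.63 and -3.44 with the authors' values. Without background correction it was -2.67, -2.88 and -3.31 at 6, 12 and 24 h, and with median scaling or no normalisation -3.05, -2.92 and -3.54 at 0, 12 and 24 h. Level calls among stars at 6, 12 and 24 h were 1, 1 and 4. They were 32, 25 and 28 with plain subtraction, 6, 7 and 18 with median scaling, 4, 6 and 8 without normalisation and 4, 5 and 8 with offset 16. They were 7, 10 and 17 with a 1.5-fold rule and 0, 0 and 2 with detection on both arrays. At 6 and 12 h they were 3 and 4 without background correction and 0 and 0 after GC correction. At 6 h they were 0 with cyclic loess, 0 without the 12 h array in the normalisation and 0 where an undetected level took its array's smallest detected value. At 12 h they were 3 with spot medians and 2 with the authors' values. Arm ratio calls were 0 at each time. They were 2, 2 and 3 with plain subtraction, 2, 1 and 3 with median scaling and without normalisation alike, and 1, 2 and 3 with a 1.5-fold rule. They were 2, 5 and 3 with each arm on at least 1 array and 3, 10 and 14 without a detection filter. At 12 h they were 1 each with cyclic loess, spot medians, the authors' values and offset 16, which gave 2 at 24 h. Over single strands 2996 values stayed on their side of the rule, 177 passed it newly, 33 no longer passed and 3 that had passed it turned sign. Some settings reuse the reported value or only loosen the rule, and strands left out by a filter were not counted. The tally is thus no measure of stability. Called or not, 317 of 3209 values had the opposite sign to the value reported. The 3 were the ratio of miR-29c* at 6 h (0.77 with plain subtraction) and of miR-31* at 12 h (-0.18 with median scaling and with no normalisation). The 12 h call of miR-296* was lost under GC correction, and its 24 h call under that, cyclic loess and the authors' values. Where detection on both arrays was required, miR-296* at 12 h and miR-31* and miR-221* at each time were left out. The median log2 change of all probes against 0 h at 6, 12 and 24 h was -0.45, -0.34 and -0.34 with median scaling. It was -0.32, 0.40 and 0.30 without normalisation, and 0.03, 0.09 and 0.02 with the quantile normalisation used above. The causes of these differences were not tested.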
